A study of Mus musculus with 35 samples.

Results

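These regions are the KLF4 sites of embryonic stem cells that had no KLF4 peak at any sampled day of reprogramming. All peaks of 8 KLF4 libraries, from days 3, 6 and 9 of reprogramming and from embryonic stem cells (ESC) in serum, were merged where they shared at least 1 bp on chromosomes 1 to 19 and X. A merged region was chosen by its peaks: it had one in both ESC lists and none in the 6 lists of days 3, 6 and 9. Of 72197 merged regions, 3433 met this rule (4.76%), which is 21.2% of the 16170 regions with a peak in both ESC lists. They are called ESC-alone sites here. Presence and strength of KLF4 in those 8 lists chose the sites, so these values are given as a description with no test. The acetylation lists and the KLF4 lists of ESC in 2i were not used to choose them.

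The fibroblasts (MEF) came from mice that carry a single cassette of Oct4, Klf4, Sox2 and c-Myc (OKSM) at the Col1a1 locus and the M2rtTA activator at the Rosa26 locus. Days 3, 6 and 9 are counted from doxycycline (1 ug/ml) with ascorbic acid (50 ug/ml) in ESC medium, so KLF4 was supplied by a transgene at those stages. Day 3 cells were taken in bulk, and day 6 and day 9 cells had been sorted for the surface marker SSEA1. The reference was the ESC line V6.5, grown in serum with LIF on irradiated feeder cells, which can add fibroblast chromatin to an ESC sample. For 2 further KLF4 libraries V6.5 cells were kept in 2i, a MEK inhibitor (1 uM) with a GSK3 inhibitor (3 uM). Chromatin immunoprecipitation with sequencing mapped KLF4 in 10 libraries and acetylation of histone H3 at lysine 27 (H3K27ac) in 12. H3K27ac had 2 libraries each in MEF, day 9 and ESC and 3 each at day 3 and day 6.

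KLF4 is a zinc finger transcription factor that binds GC-rich CACCC-type words, and it is part of the circuit that keeps ESC in the naive state. It is also one of the factors that turn fibroblasts into pluripotent cells. H3K27ac marks active promoters and enhancers. The 2i inhibitors block ERK signalling and stabilise beta-catenin, which holds mouse ESC close to the naive ground state.

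As a check of the labels, H3K27ac peaks within 2.5 kb of the gene were found at 29 of 30 pluripotency genes in both ESC lists and at 13 and 14 in the MEF lists. For 23 fibroblast genes the MEF lists gave 23 and 23 and the ESC lists 17 and 15. The H3K27ac lists held between 17493 peaks at day 6 and 88347 in MEF, and the shortest were the 3 of day 6. The 8 KLF4 lists held between 21129 and 34640 peaks. The files hold peaks and no read counts, so depth is unknown, and KLF4 or H3K27ac signal too low for a peak cannot be seen. The day KLF4 libraries belong to batches EA-3702 and DG-4040 and the serum ESC ones to EA-2643 and EA-2697, so for the rule itself stage and batch cannot be told apart. The submitters call the replicates biological but do not say how they were split, so the tests measure the spread between libraries, which may be technical in part.

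Most ESC-alone sites lay away from promoters, but 171 of them (4.98%) touched 1 of the RefSeq promoter windows, against 13.0% of all merged regions. The windows run from 250 bases before to 50 bases after a gene start. Some of these windows show what such sites look like in sequence, with and without the KLF word and with different courses of acetylation. Izumo2 is a sperm gene and Meioc a meiosis gene. Zfp57 protects imprinted methylation and Tcl1 is a co-activator of AKT, and both are in the gene lists used further on. All were picked for display after their values were seen. Each line is the part of the window that lies before the start and inside the site, 5′ to 3′ on the strand of the gene, from the RefSeq table of build GRCm38.p6. Capitals mark the KLF word GGGNGTGG on either strand.
Izumo2: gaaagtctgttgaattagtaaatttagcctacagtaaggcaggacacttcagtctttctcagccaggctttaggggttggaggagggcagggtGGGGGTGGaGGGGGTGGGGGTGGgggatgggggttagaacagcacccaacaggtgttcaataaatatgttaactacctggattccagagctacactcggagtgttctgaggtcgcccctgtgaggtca
Zfp57: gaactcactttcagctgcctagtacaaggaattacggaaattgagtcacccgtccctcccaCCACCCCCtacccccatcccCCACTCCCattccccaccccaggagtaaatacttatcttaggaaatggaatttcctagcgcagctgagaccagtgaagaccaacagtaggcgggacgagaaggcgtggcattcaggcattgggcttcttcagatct
Tcl1: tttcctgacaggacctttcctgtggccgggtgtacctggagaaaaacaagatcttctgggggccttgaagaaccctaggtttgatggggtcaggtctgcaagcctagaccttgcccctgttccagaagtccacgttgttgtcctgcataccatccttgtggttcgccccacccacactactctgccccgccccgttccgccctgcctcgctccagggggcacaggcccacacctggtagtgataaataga
Meioc: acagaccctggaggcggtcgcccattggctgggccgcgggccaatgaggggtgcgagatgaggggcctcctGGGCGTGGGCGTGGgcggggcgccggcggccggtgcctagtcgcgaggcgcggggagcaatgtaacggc
The stretches are chr7:44708509-44708729 on the plus strand (Izumo2), chr17:37002308-37002524 on the plus strand (Zfp57), chr12:105222738-105222987 on the minus strand (Tcl1) and chr11:102665445-102665584 on the plus strand (Meioc). Izumo2 holds 3 matches, Zfp57 and Meioc 2 each, and Tcl1 none. The sites differed in their acetylation. Tcl1 and Meioc had an H3K27ac peak in both ESC lists and in no list of another stage, Izumo2 in both ESC and both day 9 lists, and Zfp57 in all 12 lists.

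The KLF word was present in 48 of the 184 promoter windows at ESC-alone sites (26.1%), against 17.7% of 32585 windows of the table. Windows at regions with a peak in all 8 lists held it in 36.7% of cases. Windows at regions with peaks in both day 9 and both ESC lists and in neither day 3 list held it in 39.1%. The median GC content was 59.2% at ESC-alone sites and 62.0% at this last class. At the regions of all 8 lists it was 66.7%, and over all windows 53.0%. The part of GC content in these shares was not tested. Other words were rarer. The most frequent of them, the E-box word CACGTG, stood in 22 of the 184 windows, against 2345 of the 32585 windows of the table (7.20%). It stood in 11.8% of windows at the regions of all 8 lists and in 13.0% at the day 9 and ESC class. The ESRRB word TCAAGGTCA stood in 1 of the 184 windows (0.543% against 0.427% of all windows). The STAT word TTCCNGGAA stood in 3 (1.63% against 1.16%) and the TEAD word CATTCCA in 9 (4.89% against 4.33%). The POU octamer ATGCAAAT stood in 3 of the 184 windows (1.63%, against 1.75% of all windows). The SOX word ACAATGG stood in 8 (4.35% against 3.68%) and the AP-1 word TGANTCA in 18 (9.78% against 7.85%). Each word was counted on both strands. The 184 windows belong to 176 gene symbols and 171 sites, so some promoters count more than once. Several of the 8 windows with the SOX word are near-identical windows of the gene Gm11695 at 1 site. Words were counted over the whole window of 300 bases, also where the site touches only a few of them. These shares are therefore not those inside the sites. Sequence of the sites outside promoter windows was not used here.

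Other classes from the same merge serve for comparison: 5665 all-stage sites with a peak in all 8 lists, 1335 day 9 and ESC sites with a peak in both lists of each of these stages and in neither day 3 list, and 1483 day 9 alone sites. The ESC-alone sites had a median width of 256 bp, against 427 bp for day 9 and ESC sites and 746 bp for all-stage sites, whose width comes from the merge of more peaks. In the ESC list of batch EA-2697 the median deposited −log10 p of their peaks was 4.54 and the median deposited fold enrichment 3.86. In the list of batch EA-2643 the values were 7.28 and 2.96. All-stage sites had medians of 7.01 and 4.74 in the first list and 14.1 and 4.09 in the second. The ESC-alone sites were thus weaker than all-stage sites in both lists, with a median rank of 53.0% and 39.7% from the top of the list. A q-value of at most 0.01 was deposited for 37.5% and 74.0% of them. The strongest reached a −log10 p of 68.0 and 103.

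The rule has an edge on 2 sides. Just outside it lie 1234 regions with a peak in both ESC lists and in 1 of the 6 day lists, with median −log10 p of 5.08 and 7.83 in the ESC lists. Of these, 353 owed their exclusion to the day 3 library of batch EA-3702 and 268 to the day 9 library of the same batch numbered 2. On the other side lie 10431 regions with a peak in 1 ESC list and in no day list, with medians of 3.62 and 4.25. A KLF4 peak of some day library lay within 1 kb of 521 ESC-alone sites (15.2%) and within 12.5 kb of 60.5%. After the sites were moved by 1 Mb these shares were 7.28% and 42.6%.

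The first comparison asked whether the ESC-alone sites carry acetylation in ESC and when it appears. H3K27ac peaks were found at 62.7% and 60.8% of the sites in the 2 ESC lists. The MEF lists gave 12.5% and 12.6%. At day 3 the values were 8.01%, 7.17% and 4.89%, at day 6 they were 2.74%, 2.10% and 5.01%, and at day 9 they were 17.5% and 19.7%. Over all merged regions the stage means were 39.6% in ESC, 31.7% in MEF, and 29.3%, 19.7% and 45.0% at days 3, 6 and 9. At the ESC-alone sites every ESC value stood above every value of the other 10 libraries, and the groups did not overlap. The mean was 61.7% ± 1.38 in ESC (SD, n = 2) and 9.24% over the 10 other libraries, a difference of 52.5 percentage points (p = 0.0152 by a two-sided exact permutation of the 66 possible labelings, which can go no lower; adjusted p = 0.0303 over 4 tests). When the lists were moved by 1 Mb, 4.84% of the sites met an ESC peak and between 0.854% and 5.11% met a peak of another stage on average. The sites were chosen by KLF4 peaks in ESC and by their absence at days 3, 6 and 9. Day 9 alone sites, chosen by KLF4 at day 9, had H3K27ac peaks in 51.4% of cases at day 9 and 12.7% in ESC. How much of the ESC difference follows from the choice was not tested, so it is read as a description.

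**Figure D1:**
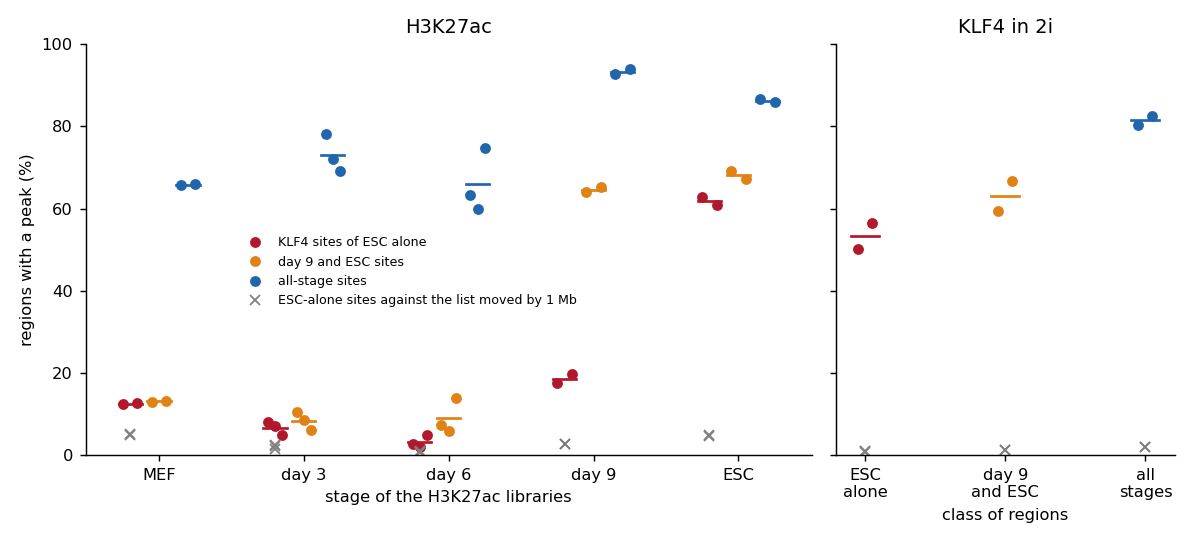
Percent of regions with an H3K27ac peak by stage (left) and with a KLF4 peak in 2i (right); each dot is 1 library, bars are means, and crosses give the share after the peak list was moved by 1 Mb. The ESC-alone sites reach 60.8% to 62.7% in ESC and at most 19.7% in any other H3K27ac library, while all-stage sites lie at 59.9% or above throughout.

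Between day 3 and day 9 the course was not monotonic. Day 3 had a mean share of 6.69% ± 1.61 (SD, n = 3). Day 6 had 3.28% ± 1.53 (SD, n = 3). Day 9 had 18.6% ± 1.57 (SD, n = 2). Both day 9 values were above all 6 earlier ones. The slope over days was 1.75 points per day and did not pass the threshold (p = 0.0750 by exact permutation of 560 labelings, two-sided; adjusted p = 0.100). Batch EA-3702 alone gave 8.01% (day 3), 5.01% (day 6) and 18.6% (day 9). Batch DG-3458 alone gave means of 12.6% (MEF), 6.03% (day 3), 2.42% (day 6) and 61.7% (ESC). No batch holds both day 9 and ESC acetylation, so between these stages time and batch cannot be told apart. Length of the list moved with these shares, the day 6 lists being the shortest. With the 17493 best peaks of every list the means were 5.75% in MEF, 3.51%, 2.84% and 8.07% at days 3, 6 and 9, and 39.3% in ESC. Over all merged regions, with the full lists, the means of days 3, 6 and 9 (29.3%, 19.7% and 45.0%) had the same order.

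The gain in ESC differed from that at all-stage sites. All-stage sites already had H3K27ac peaks in 65.7% ± 0.225 of cases in MEF (SD, n = 2) and reached 93.3% ± 0.662 at day 9 and 86.2% ± 0.562 in ESC (SD, n = 2 each). The ESC-alone share minus the all-stage share was −24.5 points in ESC and −64.3 points on average in the other 10 libraries, a difference of 39.8 points (p = 0.0152 by the same exact permutation, again the lowest value it can give; adjusted p = 0.0303). It was −23.9 and −25.1 points in the ESC libraries and between −75.3 and −53.0 points in the others, with no overlap. Day KLF4 chose both classes, since all-stage sites had to have a peak in every day list and ESC-alone sites in none. How much of the difference follows from that choice was not tested, so it is read as a description.

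Day 9 and ESC sites, at which KLF4 peaks appear by day 9, differed most from the ESC-alone sites at day 9. H3K27ac peaks were present at 64.5% ± 0.900 of them at day 9 (SD, n = 2), against 18.6% of the ESC-alone sites, and at 68.1% ± 1.43 in ESC (SD, n = 2), against 61.7%. In MEF the shares were 13.1% and 12.6%. At day 6 they were 9.11% ± 4.29 and 3.28% ± 1.53 (SD, n = 3 each), and the day 9 and ESC sites were higher in each of the 3 libraries (7.34% against 2.74%, 5.99% against 2.10% and 14.0% against 5.01%). Day 9 KLF4 chose both classes, so the day 9 gap is a description. The gap in ESC minus that in the other libraries was 5.17 points and did not pass the threshold (p = 0.939 by the same exact permutation; adjusted p = 0.939). Its positive sign came from the 2 day 9 libraries, at −46.4 and −45.4 points. The 8 others ran from −9.00 to −0.508 points with a mean of −2.97, against −6.39 in ESC, and with day 9 left out the contrast was −3.41 points (exact permutation of 45 labelings, p = 0.156). The classes also differ in width. With a window of 500 bp about the midpoint of every region the ESC means were 71.3% ± 0.762 for ESC-alone sites and 71.2% ± 1.59 for day 9 and ESC sites (SD, n = 2 each). Day 9 alone sites showed the reverse order of stages, with 51.4% ± 2.00 at day 9 and 12.7% ± 1.62 in ESC (SD, n = 2 each).

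Single sites fell into a few patterns of acetylation. An H3K27ac peak in both ESC lists was found at 1923 ESC-alone sites (56.0%), against 36.2% of all merged regions. A peak in both day 9 lists was found at 498 (14.5%, against 41.1%) and one in both MEF lists at 385 (11.2%, against 29.8%). Peaks in both ESC lists and in no list of another stage made the largest group, 1176 sites or 34.3%, against 6.24% of all merged regions and 10.7% of day 9 and ESC sites. Both ESC and both day 9 lists, with no earlier list, held 158 sites (4.60%, against 3.12% of all merged regions). Both ESC and both MEF lists held 289 sites (8.42%, against 20.0%). No H3K27ac list of any stage had a peak at 949 sites (27.6%), near the 32.4% of all merged regions. Of the 498 sites with peaks in both day 9 lists, 419 (84.1%) had them in both ESC lists too.

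**Figure D2:**
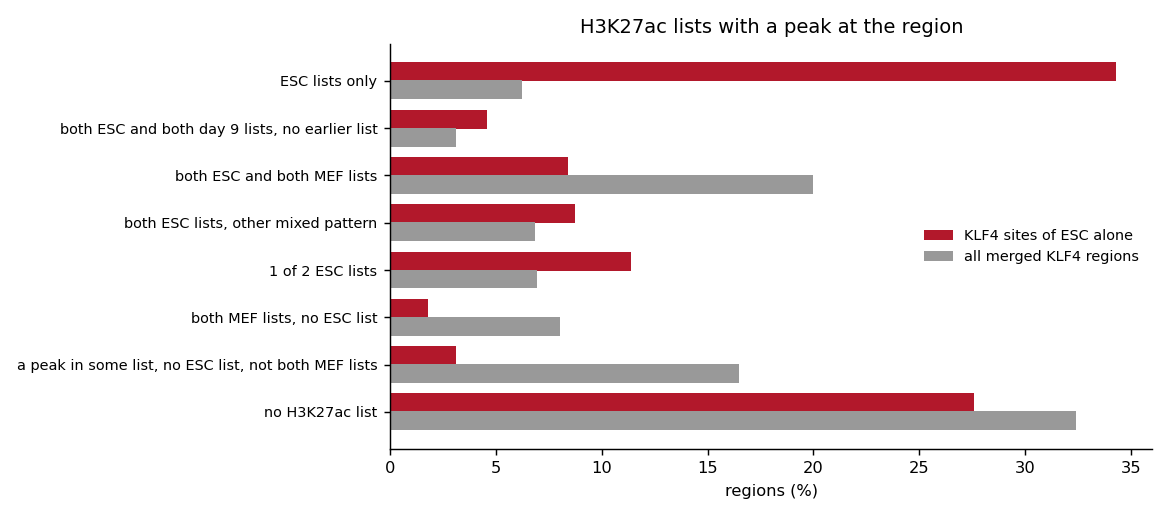
Percent of ESC-alone sites (red) and of all merged KLF4 regions (grey) in each pattern of H3K27ac peaks over the 12 lists; each region is in 1 pattern. Peaks in the ESC lists only hold 34.3% of ESC-alone sites against 6.24% of all merged regions, and no peak in any list holds 27.6% against 32.4%.

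KLF4 in 2i, the same factor in the same ESC line, was the second readout that the rule did not use. The 2i library of batch EA-3702 had a KLF4 peak at 50.1% of the ESC-alone sites and that of batch DG-3012 at 56.5%, a mean of 53.3% ± 4.51 (SD, n = 2). After the lists were moved by 1 Mb the mean was 0.888%. The first of these libraries shares its batch with day 3, day 6 and day 9 KLF4 libraries. The rule itself fixed the absence of peaks in those day libraries, and the part of batch was not tested. All-stage sites had a 2i peak in 80.4% and 82.4% of cases, day 9 and ESC sites in 59.5% and 66.7%, and day 9 alone sites in 4.18% and 7.48%. No test was made of the 2i shares. Both 2i lists had a peak at 1351 ESC-alone sites (39.4%, against 19.2% of all merged regions), 1 of them at 955 (27.8%, against 16.4%) and neither at 1127 (32.8%, against 64.4%).

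The sites shared with 2i were the stronger and the more often acetylated ones in serum. Where both 2i lists had a peak, 64.6% of sites had an H3K27ac peak in both ESC lists and 9.40% in both MEF lists. Where neither had one, the shares were 46.2% and 13.7%. The median −log10 p in serum ESC was 5.26 and 10.1 in the first group and 4.44 and 5.78 in the second. H3K27ac was measured in serum ESC only, so acetylation in 2i is not known from these files.

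Strength of the KLF4 peak went with both readouts. All ESC sites were cut into 5 bins of equal size by the mean rank of the peak in the 2 ESC lists. The best bin held 345 ESC-alone sites (10.0%), and the last held 1113 (32.4%), against 33.9% and 8.07% of the all-stage sites. In the best bin 85.5% of ESC-alone sites had an H3K27ac peak in both ESC lists and 72.5% had a KLF4 peak in both 2i lists. In the last bin the shares were 44.8% and 25.2%. Day 9 and ESC sites of the same bins had 80.7% and 79.6% in the best and 53.0% and 25.7% in the last. All-stage sites of the last bin still had 75.1% and 46.2%. Acetylation at day 9 did not follow the rank in this way: it was 11.3% in the best bin of ESC-alone sites and 16.2% in the last. The median width of ESC-alone sites was 372 bp in the best bin and 220 bp in the last. A wider site can meet more peaks, and the part of width in these shares was not tested.

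**Figure D3:**
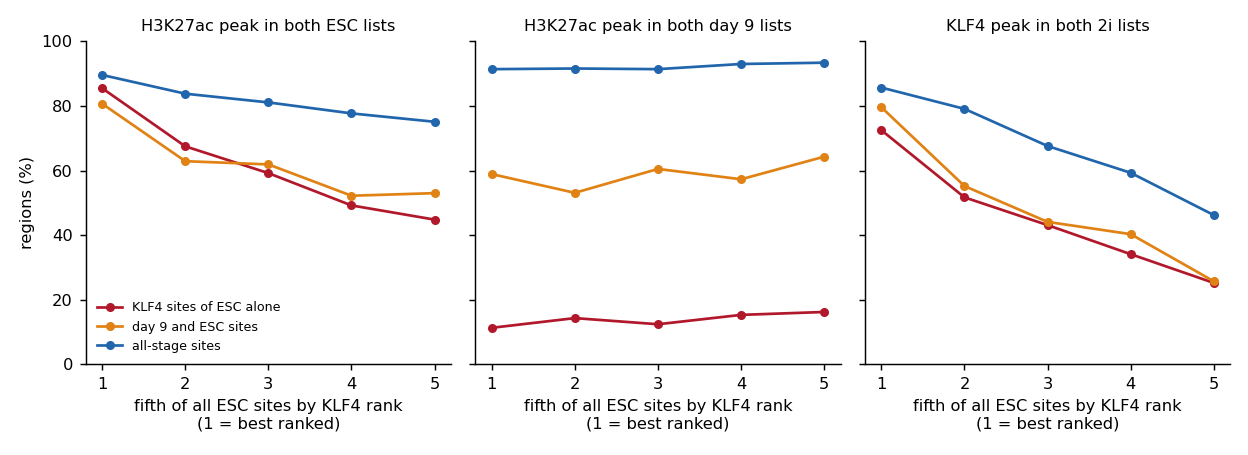
Percent of regions with an H3K27ac peak in both ESC lists, in both day 9 lists, and with a KLF4 peak in both 2i lists, by bin of KLF4 rank in serum ESC (1 is best ranked) for the 3 classes. For ESC-alone sites the ESC acetylation share goes from 85.5% in bin 1 to 44.8% in bin 5 and the 2i share from 72.5% to 25.2%, while day 9 acetylation stays between 11.3% and 16.2%.

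By position, 640 ESC-alone sites (18.6%) lay within 2.5 kb of an end of a protein-coding gene, against 26.7% of all merged regions and 54.0% of all-stage sites. The same sites moved by 1 Mb gave 10.5%. Measured to the starts of the 17273 genes that have a promoter window, in place of both ends, the shares were 11.2% of ESC-alone sites, 19.8% of all merged regions and 44.6% of all-stage sites. Day 9 and ESC sites were close to the ESC-alone sites, with 19.1% within 2.5 kb of a gene end and 12.8% within 2.5 kb of a start. The median distance to the nearest gene end was 15.4 kb, against 1.74 kb for all-stage sites, and 25.4% lay farther than 50 kb. Gene bodies held 46.0% of ESC-alone sites, near the 45.4% after a move of 1 Mb. Acetylation differed with position. Within 2.5 kb of a gene end 21.6% of the sites had H3K27ac peaks in both MEF lists and 60.5% in both ESC lists. Farther away the shares were 8.84% and 55.0%.

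**Figure D4:**
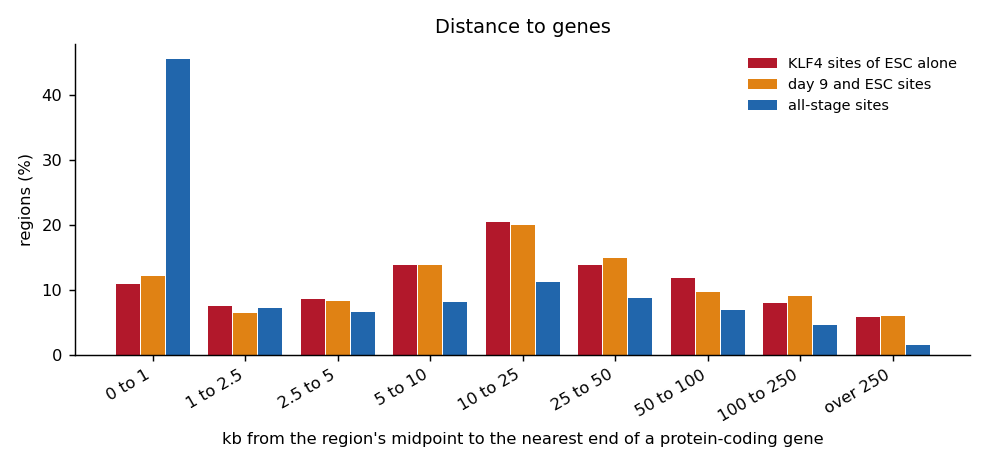
Percent of regions by distance from the region's midpoint to the nearest end of a protein-coding gene, in kb, for the 3 classes. Within 1 kb lie 10.8% of ESC-alone sites and 45.5% of all-stage sites, and ESC-alone and day 9 and ESC sites follow nearly the same profile.

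The 12 best ranked sites were mostly distal. Of these, 9 lay more than 50 kb from the nearest protein-coding gene and 1 lay inside a gene body. H3K27ac peaks were present in both ESC lists at 11 and in no other stage at 8, and both 2i lists had a KLF4 peak at 11. Their KLF4 fold was 11.9 to 23.1 in batch EA-2697 and 6.42 to 13.3 in batch EA-2643.

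The best of all was chr12:12787957-12789016, 147 kb from Mycn, which encodes N-Myc, a driver of ESC proliferation. Its KLF4 fold was 23.1 and 13.3 in serum and 14.0 and 7.37 in 2i. H3K27ac peaks there had a fold of 25.8 and 22.8 in ESC and 3.14 and 5.03 at day 9, and no earlier list had one. The second, chr1:113970623-113971057, had KLF4 folds of 23.1 and 13.0 but no H3K27ac peak in any of the 12 lists, and in 2i only the library of batch EA-3702 had a peak there (fold 4.09). It lies 1714 kb from Cntnap5a in a group of 4 ESC-alone sites, of which the other 3 had H3K27ac in both ESC lists. Among the 12 it was the one site without acetylation in ESC and the one without a peak in both 2i lists.

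A pair of the 12 sites lay 51.0 and 53.1 kb from Klf9, a gene of the same factor family, at chr19:23087286-23088094 and chr19:23089766-23090225. Both had H3K27ac folds of 38.6 and 39.1 in ESC, and the second had a peak in 1 day 3 list too. The site chr2:87481150-87481610 lay 7.48 kb from Pramel7, a naive-state gene, with KLF4 folds of 14.2 and 9.23 in serum and 7.13 and 8.53 in 2i and H3K27ac folds of 25.3 and 25.9 in ESC alone. The one site inside a gene, chr2:154467103-154467533 in Cbfa2t2, which encodes a co-repressor that works with PRDM14 and OCT4, had H3K27ac peaks at every stage, though in 1 of the 3 lists at day 6. Its H3K27ac fold was 3.18 and 5.69 in MEF, 3.30 and 2.83 at day 9, and 11.5 and 11.7 in ESC.

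The other 6 of the best ranked sites were nearest to Ntrk3 (440 kb), Pura (26.4 kb), Nudt4 (155 kb), Mcph1 (115 kb), Stxbp6 (548 kb) and Klhl29 (1220 kb), each with H3K27ac in both ESC lists and in no list of another stage. At the other end, the 3 worst ranked sites, in Pde2a, in Casz1 and 32.6 kb from Actr2, had KLF4 folds of 2.70 in batch EA-2697 and 1.73 to 1.92 in batch EA-2643. H3K27ac peaks were found there in 0, 1 and 2 of the 2 ESC lists for Pde2a, Casz1 and Actr2.

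An ESC-alone site lay within 10 kb of 2309 of 21627 protein-coding genes (10.7%). The gene lists are read against this share, with no test, and longer genes have more room for a site. Among 30 naive and general pluripotency regulators 12 had a site (40.0%). Without the KLF4 library of batch EA-2697, which raises the number of sites to 11715, 20 had one. Without that of batch EA-2643, with 5800 sites, 15 had one. The share of all genes is not given for these larger sets, so neither count can be read against 10.7%. Day 9 and ESC sites lay at 10 of the 30 (33.3%), against 4.85% of all genes. For the other lists, 8 of 18 FGF and ERK feedback genes had an ESC-alone site (44.4%). DNA methylation and TET genes had 4 of 11, epithelial junction and keratin genes 5 of 17, germ line genes 4 of 15, and LIF, STAT3 and BMP pathway genes 4 of 16. Nodal pathway genes had 3 of 15, formative and primed epiblast factors 2 of 14, WNT and TCF genes 2 of 16, extra-embryonic factors 1 of 15 and fibroblast genes 1 of 23. All-stage sites lay at 25.2% of all genes, at 12 of the 30 pluripotency genes and at 12 of the 17 epithelial genes.

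**Figure D5:**
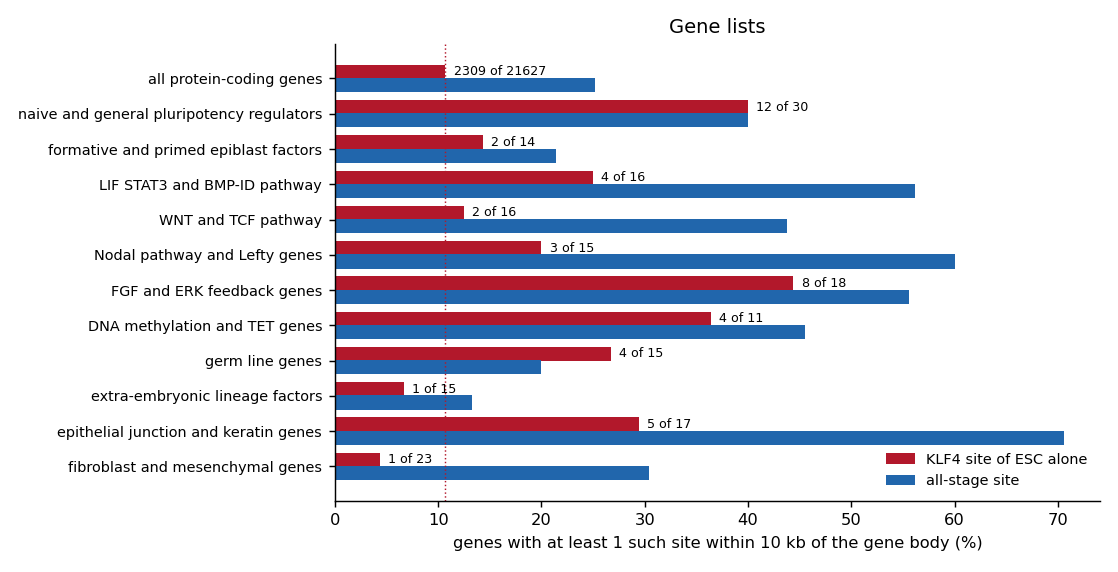
Percent of the genes of each list with at least 1 ESC-alone site (red, with counts) or all-stage site (blue) within 10 kb of the gene body; the dotted line marks the 10.7% of all protein-coding genes with an ESC-alone site. Pluripotency (12 of 30) and FGF and ERK genes (8 of 18) stand highest and fibroblast genes (1 of 23) lowest.

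At the pluripotency genes the sites were acetylated in ESC almost without exception. Of their 24 sites, 23 had an H3K27ac peak in both ESC lists, 3 in both day 9 lists and 0 in both MEF lists. Some of these sites lay under the same H3K27ac peak, as all those of Dppa5a did, so they are not separate cases. A KLF4 peak was found in both 2i lists at 12 and in at least 1 of them at 21. Over all ESC-alone sites the H3K27ac shares were 56.0% (both ESC lists), 14.5% (both day 9 lists) and 11.2% (both MEF lists). Both 2i lists had a KLF4 peak at 39.4% of all ESC-alone sites, and only 1 of them at a further 27.8%.

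Dppa5a, a germ-cell and ESC marker, had the most, with 6 sites between chr9:78360000 and 78375264. All 6 lay under a single H3K27ac peak with a fold of 37.4 and 30.5 in the 2 ESC lists, and no list of MEF or days 3 to 9 had a peak there. The strongest, 3.26 kb from the gene, had KLF4 folds of 5.90 and 7.61 in serum and 4.96 in the 2i library of batch DG-3012, with no peak in that of batch EA-3702. No all-stage site and no day 9 and ESC site lay within 10 kb of Dppa5a.

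Esrrb, an orphan nuclear receptor of the naive circuit, held 5 sites inside its gene body (chr12:86361117-86521628), and each had a KLF4 peak in both 2i lists. The strongest, chr12:86501513-86502123, had KLF4 folds of 5.31 and 8.11 in serum and 9.99 and 6.79 in 2i, with H3K27ac folds of 36.1 and 31.9 in ESC. A second Esrrb site, chr12:86469979-86470389, was already acetylated at day 9 with folds of 5.92 and 8.15, against 30.4 and 29.0 in ESC. The gene also had 2 day 9 and ESC sites within 10 kb.

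Nr5a2, a nuclear receptor that can replace Oct4 in reprogramming, held 3 sites in its body, of which 2 had H3K27ac peaks in both ESC lists and none had KLF4 peaks in both 2i lists. One of them, chr1:136952782-136953251, had H3K27ac folds of 10.0 and 11.7 at day 9 and 26.3 and 18.3 in ESC. Tfcp2l1, a naive-state transcription factor, had 2 sites, both acetylated in ESC alone. The stronger, chr1:118645722-118645994, had KLF4 folds of 5.24 and 3.66 in serum and 3.87 and 2.24 in 2i.

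Pou5f1, which encodes Oct4, had 1 ESC-alone site, chr17:35502815-35503036, 3.00 kb from the gene, beside 2 all-stage sites. Its KLF4 folds were 4.92 and 2.83 in serum and 5.87 in the 2i library of batch DG-3012, and its H3K27ac folds were 38.3 and 27.7 in ESC with no peak earlier. Klf2, whose product overlaps with KLF4 in function, had 1 weak site (folds 2.97 and 2.40) 6.11 kb away under an H3K27ac peak of fold 32.0 and 33.5. Dppa2, a regulator of early embryonic genes, had the best ranked site of this list after Dppa5a, with KLF4 folds of 7.49 and 6.65 in serum and 8.26 and 5.95 in 2i. Lin28a, which encodes an inhibitor of let-7 maturation, had a site in its body with folds of 6.55 and 4.49 in serum and 7.72 and 3.22 in 2i. Utf1, Tcl1, Dppa4 and Fbxo15 had 1 site each, all 4 acetylated in both ESC lists.

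One gene of the naive circuit had many sites beyond 10 kb. Tbx3, which encodes a T-box factor, was the nearest gene to 8 sites from 21.9 to 310 kb away. Of these, 7 had H3K27ac peaks in both ESC lists, none had one in any earlier list, and 5 had KLF4 peaks in both 2i lists. The strongest, chr5:119579743-119580291, had KLF4 folds of 7.21 and 4.91 in serum and 5.18 and 3.97 in 2i, and H3K27ac folds of 21.7 and 18.5.

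Among the DNA methylation genes, Tet1, whose product oxidises methylcytosine, had 3 sites within 10 kb. With the next 2 sites beyond, at 10.6 and 15.4 kb, 4 of the 5 formed a group of 7.61 kb outside the gene at chr10:62895538-62903145. All 4 lay under 1 H3K27ac peak with folds of 34.9 and 33.0 in ESC, and day 9 had a peak at 1 of them in 1 list. Tet2 had 2 sites with H3K27ac in both day 9 and both ESC lists. The better ranked of these had peaks in the 3 day 3 lists too (folds 3.36, 4.32 and 4.86) and in 1 day 6 list (fold 2.06). Zfp57 had 2, and its promoter site, shown above, was the one acetylated in all 12 lists. Dnmt3l, a cofactor of the de novo methyltransferases, had 1 site at the gene with KLF4 folds of 5.01 and 3.42 and no 2i peak.

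In the LIF pathway, the receptor genes Lifr and Il6st had 3 sites and 1 site. The site in Lifr at chr15:7115825-7116037 had H3K27ac folds of 30.3 and 32.4 in ESC and no earlier peak, while the site at a gene end, chr15:7090416-7090627, had peaks in both MEF lists and 1 of the ESC lists. Socs3, the feedback inhibitor, and Pim3, a STAT3 target kinase, had 1 site each. Of the 6 sites of this list, 5 had H3K27ac in both ESC lists and 0 had KLF4 peaks in both 2i lists. For the FGF list the ligand Fgf4, the receptor Fgfr2, the adaptor Grb2, the inhibitors Spry1, Spry2 and Dusp4 and the target genes Etv4 and Etv5 had 1 site each, and 6 of these 8 sites had H3K27ac in both ESC lists. Spry1 and Fgfr2 were the exceptions. The Spry1 site had KLF4 folds of 4.62 and 3.62 in serum and 7.08 and 3.31 in 2i but no H3K27ac peak in any of the 12 lists. The Dusp4 site was acetylated most at day 9, with H3K27ac folds of 35.3 and 41.4 against 4.04 and 4.64 in ESC.

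In the remaining lists the sites were fewer. Cdh1, which encodes E-cadherin, had 2 sites in its body with H3K27ac in both ESC lists and no earlier list, beside 3 all-stage sites. Tjp1, a tight junction gene, had 1 strong site (KLF4 folds 10.6 and 4.34) and no 2i peak, and its H3K27ac folds were 16.6 and 16.2 in MEF and 7.14 and 5.20 in ESC. Kit, a germ cell receptor, had 2 sites, and Sycp3, Tdrd9 and Ddx4 1 each. Otx2, a primed-state factor, had 1 site outside the gene, 1.66 kb from its end, with KLF4 peaks in both 2i lists (folds 6.75 and 4.41). Lrp5, a WNT co-receptor, had 2 sites, and Smad7, an inhibitor of TGF-beta signalling, had 2. Runx2 was the only fibroblast-list gene with a site, and that site had no H3K27ac peak in both lists of ESC, day 9 or MEF.

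The sites were grouped in part. With gaps of up to 12.5 kb, 629 sites (18.3%) lay in groups, 244 of them pairs and 41 with 3 or more sites. By nearest gene the largest numbers were at Gas8 (9), Tbx3 (8), Igsf21, Tbl1xr1 and Zfp978 (7 each), and Col13a1, Dlgap1, Grik3, Mid1 and Rbpms (6 each). These genes did not look alike in acetylation. All 9 sites near Gas8, between chr8:123541197 and 123592296, lacked an H3K27ac peak in all 12 lists, although 7 had KLF4 peaks in both 2i lists. At Igsf21 0 of 7 sites had H3K27ac in both ESC lists, while at Rbpms and at Grik3 6 of 6 had. The 6 sites beyond the end of Mid1 had H3K27ac in both ESC lists, 4 of them in both MEF lists too. Mid1 spans the boundary of the mouse pseudoautosomal region, and Zfp978 belongs to a family of near-identical zinc finger genes. Reads from such copies can be placed on several loci, so the counts at these 2 genes are uncertain. Whether reads at the other groups, those near Gas8 included, match several loci was not tested.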

How the data were processed

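Peak lists of 22 libraries were used, 10 of KLF4 and 12 of H3K27ac, and 13 input libraries were not analysed here. The authors deposited 1 list per library, which gives every peak a score, a fold enrichment (a ratio over background) and the −log10 of its p-value and q-value. The submitters' processing notes name cutadapt 1.8.1, Bowtie2 2.2.5, deepTools 2.3.6, MACS2 2.1.1 and build mm10, with no role or settings. Lists end near a −log10 p of 2.00. The deposited score is the −log10 p times 10 and only ranked peaks. The files give no summits, so the planned 200 bp about the summit became 200 bp about the midpoint.

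From these lists the merge, the overlaps (at least 1 bp) and the shares were computed with Python 3 (numpy, pandas), and the code was tested on simulated data with known classes. Each H3K27ac library gave 1 value per class, and exact permutation tests used these values, adjusted over 4 tests by Benjamini-Hochberg with a threshold of 0.05. Alternatives were judged on unadjusted p-values. Overlap by chance was measured after a move of 1 Mb. Genes came from the RefSeq table of GRCm38.p6, the primary sequence of mm10, with 21627 protein-coding genes on these chromosomes. A start is given for 17273 of them, and for none on chromosome 18, so distance was taken to either gene end. The members, gene lists, motif words and tests were chosen with earlier results of these data known. Named were the 12 best and 3 worst ranked sites, the 10 genes with most sites, and up to 30 list genes with a site by their number of sites; Pim3, Socs3, Dppa4, Klf2, Etv4, Etv5, Fgf4, Fgfr2, Dusp4, Tdrd9, Ddx4, Runx2 and the Izumo2 and Meioc windows were named after their values were seen.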

Additional observations from a re-analysis of the deposited data

How the results depend on the processing

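The number of ESC-alone sites depended on the lists. It was 1623 with a q-value of at most 0.01 in all 8 lists, 2230 with the top 50% of each list, and 1163 when that q-value limit was set for the ESC lists alone, an alternative chosen after seeing the data. Leaving out 1 KLF4 library gave between 3576 and 11715 sites, the highest with batch EA-2697 left out of the ESC lists and 5800 with EA-2643 left out, since 1 ESC list then suffices. With these, ESC acetylation was 49.1% and 49.6%. The ESC contrast and the contrast against all-stage sites kept their direction in all 23 alternatives each and their side of the threshold in 20. The exceptions were the replicate block and the runs without ESC library 1 (51.5 and 39.2 points) or 2 (53.5 and 40.3 points), where 0.0909 is the smallest exact permutation p. Leaving out 1 H3K27ac library gave 51.5 to 53.7 points, 38.5 to 41.0 points against all-stage sites, 1.30 to 6.40 points against day 9 and ESC sites, and a slope of 1.07 to 2.10 points per day. The lowest ESC contrast, 30.5 points (exact permutation test, p = 0.0152), came when peaks had to cover 50% of the shorter interval.

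With a replicate block (batch DG-3458, labels permuted within the number) the contrasts were 54.7 and 34.5 points (exact permutation tests, p = 0.0625, the smallest possible), −4.34 points against day 9 and ESC sites (exact p = 0.0625) and a slope of −1.20 points per day (exact p = 0.500); this batch holds no day 9 library. With day 9 left out of all batches, an alternative chosen after seeing the data, the contrast against day 9 and ESC sites was −3.41 points (exact permutation test, p = 0.156). The numbers did not pair the libraries: deviations of the same number correlated between −0.005 and 0.009. The peak names inside the day 6 H3K27ac lists of that batch carry each other's numbers. With labels permuted within batches the ESC contrast and that against all-stage sites had p = 0.0357 (exact permutation tests of 28 labelings, the lowest value they can give). The contrasts themselves still used the libraries of both batches. All ESC libraries of H3K27ac are in batch DG-3458 and all day 9 ones in EA-3702, so this block cannot separate these stages from batch. With 2i peaks of a q-value of at most 0.01 the 2i share was 34.9%. Depth is unknown, and with 2 or 3 libraries per stage the spread itself is uncertain.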

Other observations

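The X chromosome held 73 ESC-alone sites among its 192 ESC sites (38.0%), against 21.0% on the autosomes, where the share ran from 16.3% on chromosome 16 to 25.3% on chromosome 14. Without the 6 sites beyond Mid1 the share on X was 36.0%. Of the X sites, 60.3% had H3K27ac in both ESC lists and 13.7% in both day 9 lists, close to the 56.0% and 14.5% of all ESC-alone sites, and 21.9% had KLF4 peaks in both 2i lists, against 39.4%. No test was made of these shares.

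Of the 171 sites in promoter windows, 105 (61.4%) had H3K27ac in both ESC lists, against 56.0% of all ESC-alone sites and 36.2% of all merged regions. In both MEF lists 50 (29.2%) had it, against 11.2% and 29.8%, and in the ESC lists alone 38 (22.2%), against 34.3% and 6.24%. KLF4 peaks in both 2i lists were found at 80 (46.8%), against 39.4% and 19.2%.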
